A study of Homo sapiens with 9 samples.

Results

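The comparison set the RNA-seq library labelled UPF1/XRN1 directly against the one labelled SMG6/XRN1. These are 2 of the 9 samples of the series, taken by their labels as columns of a gene table and an isoform table. Both came from HEK293 cells, a human embryonic kidney line, of the Flp-In T-Rex b-39 subline, which carries a beta-globin reporter with a premature stop codon (PTC39) at the Flp-In locus. Small interfering RNAs (siRNAs) against UPF1 and XRN1 had been given to one culture and siRNAs against SMG6 and XRN1 to the other, so XRN1 depletion was common to both. RNA-seq libraries of a control that received an EGFP siRNA and of XRN1 depletion alone are given beside them as reference, with the same reporter. RNA was cytoplasmic, released with digitonin, and poly(A)-selected. The remaining 5 samples, 4 of 5′-end sequencing and 1 of CAGE, stayed out of the analysis. Each condition had 1 RNA-seq library. No difference below therefore has a replicate check, no p-value was computed, and all sizes describe these libraries. The sources used here do not say whether the b-39 subline is 1 clone.

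Nonsense-mediated decay (NMD) removes mRNAs on which translation ends early, classically where a stop codon lies well upstream of the last exon-exon junction. UPF1 is the RNA helicase at its centre and acts in all known branches of the pathway, and also in other decay routes that recruit it to RNA. SMG6 is the endonuclease of the pathway and cuts the mRNA near the stop codon. XRN1 is the 5′-to-3′ exonuclease that degrades the downstream fragment of such a cut as well as decapped mRNA. Depleting UPF1 and depleting SMG6 thus act on the same pathway at the helicase and at the endonuclease, and the comparison asks which RNAs differ between the 2.

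Several genes of splicing factors make both a coding mRNA and an isoform annotated as an NMD target, and the results below follow both. The stop codons of 5 such pairs, chosen after their values were seen, are shown because the NMD annotation rests on where they lie. Each sequence gives the last coding bases 5′ to 3′ with the stop codon in capitals, from GENCODE 29 on GRCh38. All lie in coding exons. The files name the same transcript identifiers on hg19, so these coordinates are those of the reference only.
TRA2B, NMD-annotated: aatgagtatttgaagctcaggaataagTGA
TRA2B, coding: tctcgatcatactcacctcgtcgctatTAA
HNRNPL, NMD-annotated: tctttcagaactgtgctaactcactgtTGA
HNRNPL, coding: tgtttctccactgctcagcacgcctccTAA
SRSF3, NMD-annotated: accatcatgtctcttctcaccaccctcTGA
SRSF3, coding: agtcgatctaggtcaaatgaaaggaaaTAG
RBM39, NMD-annotated: ctccttggaaagctctacatctccttgTGA
RBM39, coding: acacagctactggttccaagtagacgaTGA
SNRPB, NMD-annotated: tggcctcattgcctatttgtaaagctgTAG
SNRPB, coding: cctccccctgggatgcgaggccttcttTGA

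In TRA2B (chr3:185917330-185938029, minus strand) the NMD-annotated frame ended after 38 residues, 1015 nt before the last junction, while the coding isoform ran to 288 residues and ended in the last exon. The HNRNPL frame (chr19:38836395-38852347, minus strand) closed after 179 residues, 842 nt before the last junction, against 456 residues. For SRSF3 (chr6:36594391-36602040, plus strand) it closed after 124 residues, 548 nt before the junction, against 164. RBM39 (chr20:35704326-35742256, minus strand) had a frame of 47 residues whose stop lay 1420 nt before the junction, against 530. SNRPB (chr20:2461660-2470732, minus strand) had 70 residues with 596 nt to the junction, against 231. All 5 coding stops lay in the last exon.

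The gene table gave FPKM (fragments scaled by transcript length and library) for 22266 loci. The isoform table gave a spike-in normalised signal for 199618 isoforms, whose low values showed what 1 read was worth. By that step the libraries held 31489115 estimated reads (control), 32979691 (XRN1), 34659480 (SMG6/XRN1) and 35991758 (UPF1/XRN1). Ratios of reads below keep the spike-in scaling and carry exact conditional binomial 95% intervals, which cover counting error only. Values for the 4 libraries are listed in the order control, XRN1, SMG6/XRN1 and UPF1/XRN1, as labelled. A log2 difference is always the library labelled UPF1/XRN1 minus that labelled SMG6/XRN1, on FPKM + 1 unless the signal is named. Of 18 genes that mark other cell types, 2 reached the filter of a mean of 1 FPKM, EPCAM (120.3, 126, 121.1 and 98 FPKM) and ACTA1 (0.31, 0.74, 1.84 and 2.21 FPKM).

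The targeted mRNAs were examined first. UPF1 stood at 6.71, 11.6, 11.4 and 8.59 FPKM, so it was lower in the library labelled UPF1/XRN1 than in that labelled SMG6/XRN1, with a read ratio of 0.59 (95% interval 0.55 to 0.64). It was not below the control. SMG6 stood at 4.77, 5.55, 7.66 and 5.97 FPKM, so the library meant to lack it held the most by FPKM. By estimated reads the order turned, with 672 there against 1115 in the library labelled UPF1/XRN1 (ratio 1.45, 1.32 to 1.60), so its direction depends on the scale. XRN1 stood at 7.80, 7.31, 10.1 and 6.50 FPKM, with 1818 reads against 1854 (ratio with the spike-in scaling 0.89, 0.84 to 0.95). Neither the UPF1 nor the SMG6 total was below the control in the library labelled for it, so these totals did not check the labels, and libraries are called by their labels below. The isoforms of the 3 targets, summed by type after these values were seen, split further. Coding UPF1 isoforms matched to the reference held a signal of 2958, 4757, 5640 and 1242, lowest in the library labelled UPF1/XRN1 (ratio over the pair 0.22, 0.19 to 0.25), while all other UPF1 isoforms went the other way (1.56, 1.40 to 1.74). Coding XRN1 isoforms held 3689, 1246, 1708 and 1728, below the control in all 3 libraries labelled with XRN1 depletion, where the other XRN1 isoforms stood above it. Coding SMG6 isoforms held 1892, 2299, 1890 and 1856, and their ratio over the pair was 0.98 (0.86 to 1.12), so the pair could not be told apart by them. Coding sums of UPF1 and XRN1 therefore went with the labels. For SMG6 the total reads were lower in the library labelled SMG6/XRN1 than in its partner, but neither FPKM nor the coding sum separated the pair in that direction.

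Over the 12164 genes whose 4 libraries averaged 1 FPKM or more, the co-depletions lay close together. The median log2 difference was -0.10, the central 90% of genes lay between -0.49 and 0.35, and 96.0% of genes were within 1.5-fold. A total of 38 genes was 2-fold higher in the library labelled UPF1/XRN1 (0.312% of genes tested) and 38 was 2-fold lower (0.312%). Of the calls, 50% were thus higher. That split depended on the scale: it was 57 against 105 (35.2% higher) by the isoform signal summed per locus, 51 against 27 (65.4%) after centring on the median gene, 74 against 122 (37.8%) with a pseudocount of 0.1 FPKM and 12 against 19 (38.7%) among genes with a mean of at least 5 FPKM. The median gene was at -0.10 by FPKM, -0.13 by summed signal and 0.01 by share of library reads, so its level moved by more than 0.1 with the measure used. The sources used here do not state how the authors scaled FPKM between libraries. Differences are therefore read against the median of -0.10, and the medians of 13 of the 34 gene lists below had another sign by share of library reads. In bulk RNA, less RNA per cell and fewer cells cannot be told apart.

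Many genes that were 2-fold apart by FPKM were not so by signal. Among the 38 higher genes 26 were 2-fold higher by summed signal too, and among the 38 lower genes 30. The remaining 20 included CHD8, a chromatin remodeller, at 459 against 55.3 FPKM but with 2586 against 2660 reads, and RCOR1, a corepressor subunit, at 17.2 against 80.8 FPKM but with 1754 against 1850 reads. EP400 and DYNC1H1 were likewise higher by FPKM, by 1.33 and 1.05, and at -0.16 and -0.06 by signal. A second set was therefore taken after these values had been seen: genes at least 1.5-fold apart on both scales with at least 100 reads over the pair. It held 69 genes higher in the library labelled UPF1/XRN1 (0.567% of genes tested) and 188 lower (1.55%).

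**Figure D1:**
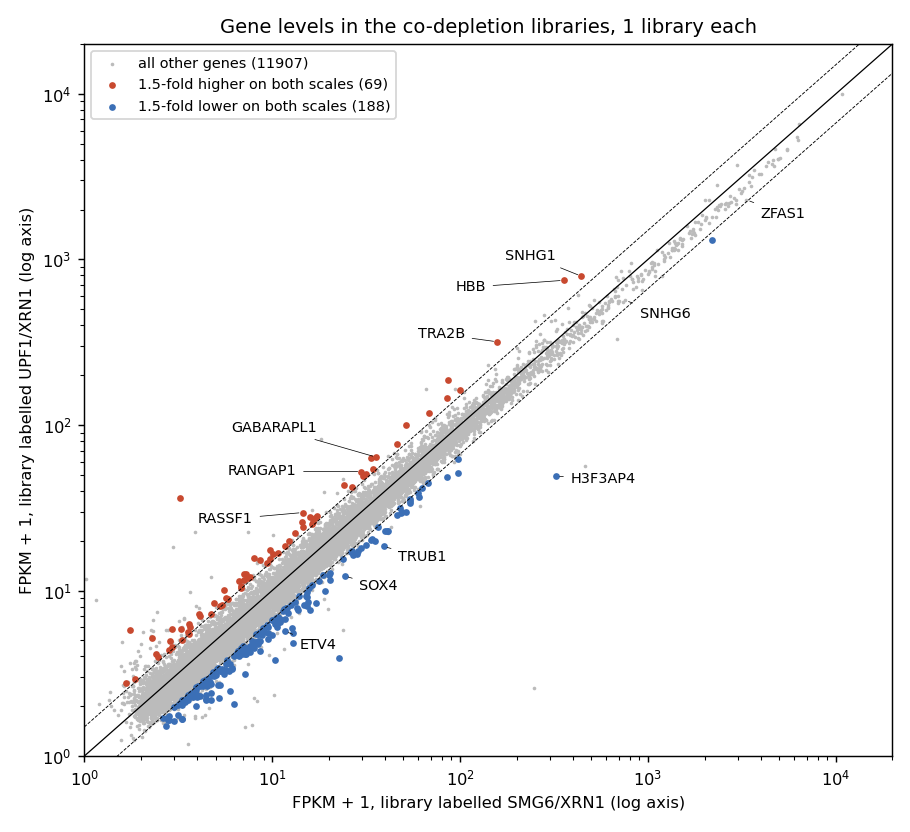
FPKM + 1 of 12164 genes in the library labelled SMG6/XRN1 (horizontal, log axis) and in that labelled UPF1/XRN1 (vertical, log axis), 1 point a gene and 1 library an axis. The solid line marks equal levels and the dashed lines 1.5-fold. The 69 red genes and the 188 blue genes were 1.5-fold apart on both scales, and most points lie just below the solid line, with a median log2 difference of -0.10.

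The other 2 libraries show from which side each set departed. Of the 69 higher genes, 68 stood above the library labelled XRN1 in that labelled UPF1/XRN1 and 55 stood above it in that labelled SMG6/XRN1. Their median log2 differences from that library were 1.11 and 0.36. Of the 188 lower genes, 172 stood below the library labelled XRN1 in that labelled UPF1/XRN1, with a median of -0.65, while 111 stood above it in that labelled SMG6/XRN1, with a median of 0.07. Over all 12164 genes tested the same medians were 0.02 and 0.12. Of these genes, 6340 stood above the library labelled XRN1 in that labelled UPF1/XRN1 and 5824 below it. In that labelled SMG6/XRN1, 8215 stood above it and 3949 below. Standing above it with SMG6/XRN1 was thus common to most genes and not particular to either set. Both comparisons share the library labelled XRN1, so these counts are a description. The order of the pair within each set was fixed by how the sets were chosen. The higher set held mostly RNAs that stood above XRN1 depletion alone in both co-depletions. In the lower set, most genes stood below XRN1 depletion alone with UPF1/XRN1. With SMG6/XRN1 they stood on both sides of it, 111 above and 77 below.

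HBB, the symbol under which reads of the beta-globin reporter fall, was among the largest differences. It stood at 139, 257, 355 and 747 FPKM, each library above the one before, and its read ratio was 2.13 (2.05 to 2.20) with 4573 against 11116 reads. Reads of the reporter and of the native gene carry the same symbol and cannot be told apart. The alpha-globin genes HBA1 and HBA2, which were not part of the reporter, stood at 4.63 against 3.83 and at 1.26 against 1.08 FPKM, below 0 on the log2 scale (-0.22 and -0.12).

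Besides HBB, the rule for named genes took 2 others that were higher in the library labelled UPF1/XRN1. RASSF1, a Ras-association scaffold and tumour suppressor, stood at 3.14, 10.2, 13.5 and 28.6 FPKM, with a read ratio of 2.07 (1.91 to 2.24). Every library lay above the one before. RP11-3P17.3, a locus named by its clone, stood at 2.59, 50.4, 2.21 and 35 FPKM. It was high in the libraries labelled XRN1 and UPF1/XRN1 and low in the other 2, with 26.0 against 467 reads over the pair (ratio 15.7, 10.6 to 24.3). Its name gives no function, and whether it shares reads with another locus was not tested.

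Further genes of the 1.5-fold higher set, were named after their values were seen. GABARAPL1, a member of the ATG8 family of autophagy proteins, stood at 20.6, 25.3, 34.8 and 62.9 FPKM. OTUD1, a deubiquitinase, stood at 8.28, 6.51, 7.02 and 14.6 FPKM, so that only the library labelled UPF1/XRN1 departed from the other 3. RANGAP1, the GTPase activator of the nuclear transport factor Ran, showed the same shape at 28.4, 26.1, 28.8 and 51.2 FPKM. STX1A, a membrane fusion protein of neurons, stood at 1.45, 2.69, 8.77 and 16.5 FPKM, and TNFRSF12A, the receptor of the cytokine TWEAK, at 5.32, 13.3, 23.0 and 42.4 FPKM. These last 2 were graded over the 4 libraries. NEAT1, the long RNA that scaffolds nuclear paraspeckles, stood at 3.62, 4.20, 11.3 and 19 FPKM. The 6 nuclear-retained RNAs tested had a median log2 difference of 0.15 by FPKM and 0.05 by signal, with 4 above 0 and 2 below. The RNA was prepared as cytoplasmic, and whether the libraries differed in nuclear RNA was not tested. TOE1, a 3′ exonuclease of small nuclear RNAs, stood at 9.82, 23.9, 30.6 and 49.7 FPKM.

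Among genes lower in the library labelled UPF1/XRN1, the rule named 10, with log2 differences from -1.01 to -2.72. MYOM2, a protein of the muscle sarcomere, stood at 13.9, 15, 11.9 and 4.56 FPKM (read ratio 0.37, 0.31 to 0.44). TRUB1, a pseudouridine synthase, stood at 37.0, 31.2, 38.2 and 17.5 FPKM (0.43, 0.41 to 0.45). CADM1, an adhesion molecule of the immunoglobulin family, stood at 15.4, 16.2, 15 and 6.64 FPKM (0.40, 0.38 to 0.43). In all 3 the library labelled UPF1/XRN1 was the lowest and the other 3 lay within a narrow range. GPC3, a cell surface proteoglycan, had the same shape at 8.21, 8.59, 7.60 and 3.28 FPKM, as did the clone-named locus CTD-2396E7.10 at 17, 17.7, 16.1 and 7.43 FPKM. COL4A3BP, the ceramide transfer protein, stood at 9.09, 8.34, 11.7 and 4.96 FPKM (0.40, 0.37 to 0.44). After centring on the median gene, COL4A3BP, TRUB1, CADM1, ETV4, CTD-2396E7.10 and GPC3 lay between -0.99 and -0.91 and no longer passed 2-fold.

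ETV4, an ETS transcription factor induced by growth signals, differed in shape. It stood at 2.75, 4.03, 10.7 and 4.69 FPKM, so the library labelled SMG6/XRN1 was the high one. That labelled UPF1/XRN1 came next, above the control and XRN1 libraries. Its read ratio was 0.43 (0.38 to 0.49). Other genes of the 1.5-fold lower set, were named after their values were seen. SOX4, a transcription factor of progenitor cells, stood at 29.1, 28.6, 23.4 and 11.2 FPKM. HOXA13, a homeobox factor, stood at 13.2, 11.1, 6.63 and 3.23 FPKM, lower in both co-depletions than in the other 2 libraries. AMOT, a regulator of Hippo signalling, stood at 20.1, 25.2, 14.3 and 7.11 FPKM. G3BP2, an RNA-binding protein of stress granules, stood at 28.8, 33.9, 40.4 and 21.7 FPKM. LAMB1, a laminin chain, stood at 16.5, 36.9, 34.1 and 18.8 FPKM.

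The other 3 named lower loci were copies of genes whose reads they can share. H3F3AP4, a copy of the histone gene H3F3A, stood at 67.2, 65.9, 324 and 48.1 FPKM, apart in the library labelled SMG6/XRN1 alone. Reads of H3F3AP4 and H3F3A together were 43343 against 35743, a ratio of 0.72 (0.71 to 0.73). H3F3A alone had 32659 against 33940 reads, a ratio of 0.91 with the spike-in scaling, so it did not offset its copy. BZW1P2 had 4069 against 392 reads while its parent BZW1 had 8196 against 14185, so the 2 differed in opposite directions. Together they held 12265 against 14577 reads, a ratio of 1.04 (1.02 to 1.07). RPL9P9 had 180 against 60.9 reads, and together with RPL9 the ratio was 0.91 (0.89 to 0.92). On the higher side such a locus was CCT6P1, a copy of the chaperonin subunit CCT6A. It stood at 84.9 against 185 FPKM, and with its parent the read ratio was 1.04 (1.02 to 1.06). The sources used here do not state how reads were divided between such copies, so the values of the copies alone are uncertain.

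**Figure D2:**
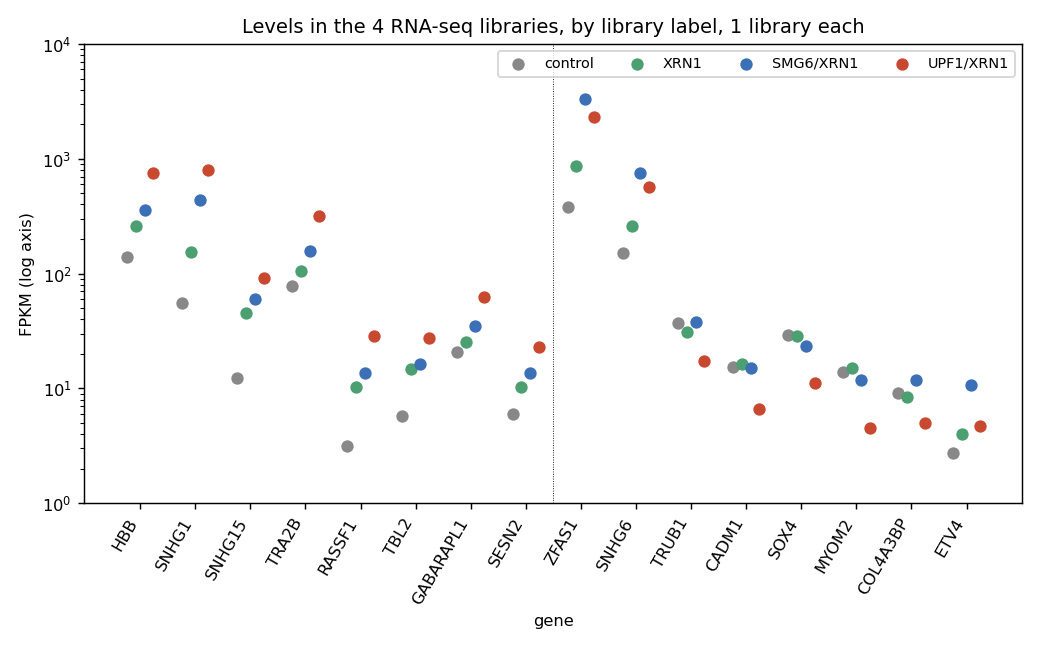
FPKM (log axis) of 16 genes in the 4 RNA-seq libraries, 1 point a library, coloured by library label. Left of the dotted line stand genes that were highest in the library labelled UPF1/XRN1, such as HBB at 747 FPKM, and right of it genes that were lower there than in that labelled SMG6/XRN1, such as ZFAS1 at 2290 against 3336 FPKM and TRUB1 at 17.5 against 38.2 FPKM.

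Hosts of small nucleolar RNAs (snoRNAs) carry these guide RNAs in their introns, and the spliced host RNAs are known substrates of NMD. The non-coding hosts did not go one way. Of 15 tested, 9 lay above the median gene, with a median of 0.05. By FPKM 2 were 1.5-fold higher (1.44% of all genes tested) and 1 was 1.5-fold lower (2.56%). SNHG1 stood at 55.9, 154, 440 and 792 FPKM (read ratio 1.77, 1.73 to 1.81 with 12211 against 24740 reads), each library above the one before. SNHG15 stood at 12.4, 45.5, 60.6 and 91.2 FPKM. SNHG11, the other host past 1.5-fold, stood at 2.12, 3.89, 9.07 and 20.8 FPKM but differed by only 0.34 by signal.

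ZFAS1 and SNHG6 went the other way. ZFAS1 stood at 380, 868, 3336 and 2290 FPKM, above the library labelled XRN1 in both co-depletions and lower in that labelled UPF1/XRN1 than in that labelled SMG6/XRN1 (-0.54). SNHG6 stood at 152, 259, 755 and 565 FPKM (-0.42). GAS5, at 176, 412, 1482 and 1353 FPKM, and SNHG12, at 37.2, 129, 445 and 479 FPKM, were close to equal in the co-depletions (-0.13 and 0.11). SNHG9 was the lowest by value but rested on 3.00 reads in the library labelled UPF1/XRN1. The hosts that code for proteins outside the ribosome had a median of -0.04, with NOP58, a core protein of box C/D snoRNPs, at 339, 424 and 611 FPKM in the XRN1-depleted libraries (0.53) and the kinase gene PRKDC at 62.5, 50.8 and 37 FPKM (-0.45).

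Of 32 known NMD targets tested, 26 lay above the median gene and 22 above 0, with a median of 0.10. By FPKM 4 were 1.5-fold higher and none 1.5-fold lower, beside 1.44% and 2.56% of all genes. The 4 were TRA2B, SNHG1, TBL2 and UPP1. TBL2, a WD-repeat protein of the endoplasmic reticulum, stood at 5.74, 14.6, 16.2 and 27.3 FPKM (0.71), so that the library labelled SMG6/XRN1 lay close to that labelled XRN1 and the one labelled UPF1/XRN1 above both. UPP1, uridine phosphorylase, stood at 3.28, 5.19, 8.43 and 13.7 FPKM (0.64). GADD45A and GADD45B, stress-response genes, were at 0.58 and 0.36. Others that stood far above the control were equal in the pair. ATF4 held 603 and 601 FPKM and UPF2 26.3 and 26.9 FPKM. ZFAS1 (-0.54), UPF1 itself (-0.37) and RPL3 (-0.24) were the lowest of the list. The list was drawn from the literature with results of these data known, and it shares members with the lists of snoRNA hosts, splicing factors and ATF4 targets.

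NMD factor mRNAs are themselves NMD targets in human cells. Among 11 tested, UPF3A (52.3 against 65.7 FPKM, 0.32), SMG5 (18.6 against 21.9, 0.22) and SMG9 (42.9 against 47.9, 0.15) were highest, and 9 of 11 lay above the median gene. SMG1, the kinase that phosphorylates UPF1, was at -0.08. None was 1.5-fold apart by FPKM. Genes of the exon junction complex, which marks exon junctions for the pathway, had a median of -0.08, close to the median gene, and MAGOH (-0.28) was the lowest of them.

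At the gene level the SR proteins, splicing factors with arginine-serine repeats, had a median of 0.04, and 9 of 12 lay above the median gene. TRA2B stood at 78.5, 105, 157 and 317 FPKM (1.01 by FPKM, 0.64 by signal), SRSF10 at 73.4, 114, 204 and 278 FPKM (0.44) and SRSF6 at 85.5, 177, 264 and 352 FPKM (0.41). SRSF3 and SRSF7 were equal in the pair (0.02 and 0.00). The hnRNP proteins, RNA-binding proteins of pre-mRNA, had a median of -0.16. HNRNPC (858 against 680 FPKM, -0.34), HNRNPD and HNRNPA1 (both -0.27) were the lowest, and HNRNPH1 (715 against 852 FPKM) and HNRNPM (261 against 309 FPKM) the highest at 0.25 and 0.24.

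Gene totals hid larger differences between the isoforms of these genes. The share of a locus' reads on isoforms that GENCODE annotates as NMD targets does not depend on library scaling. TRA2B had 12.4, 28.1, 52.4 and 64.6% of its reads there (95% Clopper-Pearson intervals 51.7 to 53.2% and 64.1 to 65.2% in the pair). All these reads were on the isoform that ends after 38 residues, with 8437 against 18519 reads, while the coding isoform shown with it held 6514 against 6780. For HNRNPL, a splicing repressor, the shares were 7.5, 14.9, 52.0 and 66.9%, with intervals of 51.4 to 52.6% and 66.4 to 67.4% in the pair. Its other isoforms were lower in the library labelled UPF1/XRN1, by -0.45 on the log2 scale, while the NMD-annotated one was higher by 0.45. HNRNPL was accordingly near the median gene by FPKM (-0.12). In both genes the intervals of the pair did not overlap.

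RBM39, a splicing factor that acts with U2AF, had the largest difference of the splicing genes. Its NMD-annotated share was 14.6, 13.2, 30.1 and 49.4%, so the library labelled XRN1 did not exceed the control, and the co-depletions differed by 19.3 points. The isoform shown, which ends after 47 residues, held 2379 against 6478 reads. SNRPB, a core protein of spliceosomal snRNPs, had shares of 2.31, 4.40, 12.5 and 22.7%, and SNRNP70, the U1-specific protein, 1.49, 3.23, 9.95 and 18.5%. Both were low in the libraries without co-depletion and higher in that labelled UPF1/XRN1 than in that labelled SMG6/XRN1. The U2AF2 subunit of the 3′ splice site factor was at 2.41 against 4.30%.

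Among SR genes SRSF3 had shares of 9.90, 33.6, 46.5 and 54.9%, SRSF7 16.1, 31.3, 47.3 and 55.1% and SRSF10 5.19, 7.35, 18.7 and 25.5%. The splicing kinases CLK1 (39.8 against 45%) and CLK4 (16.3 against 22.6%) were higher too. At the SRSF3 and SRSF7 loci the NMD-annotated reads were higher by 0.28 and 0.19 and the other reads were lower (-0.21 and -0.26), which left the gene totals equal. Other genes of this kind did not differ so. SRSF6 stood at 61.8 against 61.6%, SRSF2 at 23.0 against 22.5% and HNRNPA2B1 at 52.3 against 52.6%, although SRSF2 held only 1.23% in the control. HNRPDL (52.3 against 46.7%), PSPC1 (37.6 against 35.4%) and RBM5 (7.57 against 4.0%) were higher in the library labelled SMG6/XRN1. Of the loci with enough reads, 5 of 9 SR genes (55.6%), 4 of 7 hnRNP genes (57.1%) and 11 of 17 other splicing regulators (64.7%) were higher in that labelled UPF1/XRN1, beside 61.3% of all loci, so the splicing genes were near the background.

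**Figure D3:**
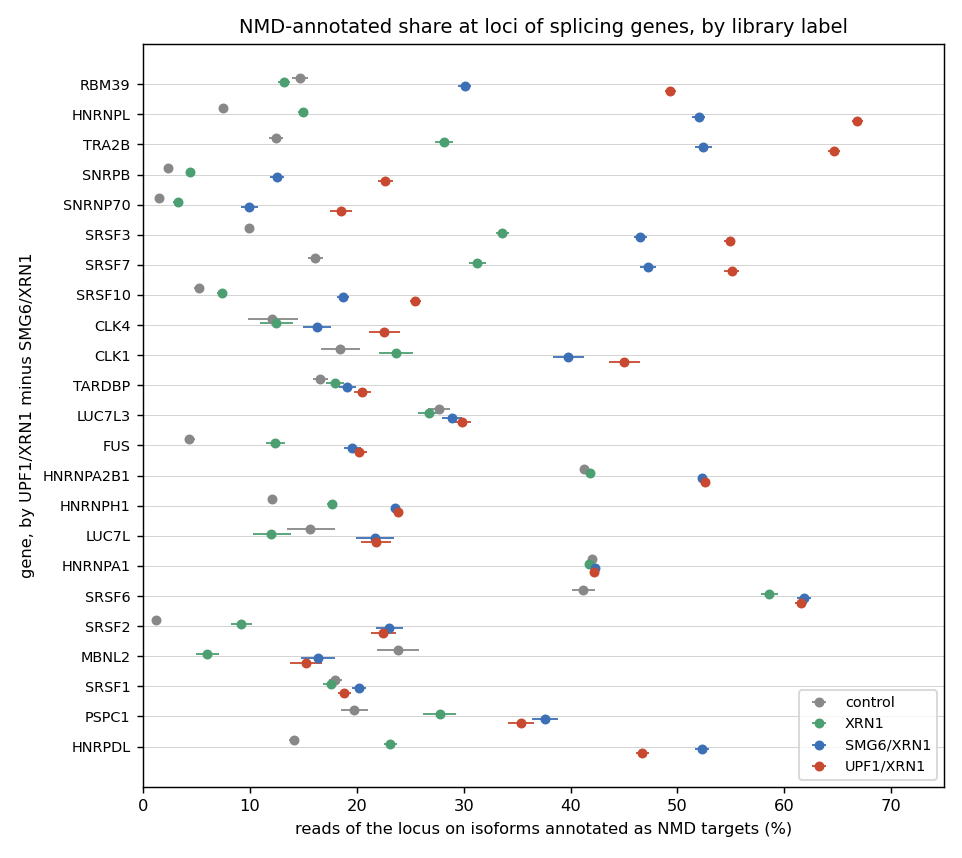
Share of the reads of a locus on isoforms annotated as NMD targets (horizontal, percent) for genes of splicing factors with at least 10% in either co-depletion, coloured by library label. Points are single libraries and bars are 95% intervals of counting error. Genes are ordered by the difference, from RBM39 at the top (30.1 against 49.4%) to HNRPDL at the bottom (52.3 against 46.7%).

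The same share was taken at 2101 loci with at least 100 reads in each library of the pair and 50 NMD-annotated reads over it. It was higher in the library labelled UPF1/XRN1 at 1287 loci and lower at 812, with a median difference of 0.60 points. Median shares were 5.87, 7.47, 10.8 and 11.9%. At 113 loci the share was at least 10 points higher and at 79 at least 10 points lower. With at least 1000 reads in each library these were 42 and 21 of 1452 loci. At that depth the 4 largest differences upward were at PIK3R2, a regulatory subunit of PI3-kinase (54.4, 32.3, 39.3 and 63.8%), ZNF195, a zinc finger gene (9.16, 4.70, 2.18 and 23.95%), FECH, the last enzyme of haem synthesis (0.89, 2.70, 32.3 and 52.2%), and TNFRSF10B, a death receptor (0.06, 0.04, 0.005 and 19.4%). At PIK3R2 the log2 difference was 0.19 for NMD-annotated reads and -1.25 for other reads, and at FECH 0.47 and -0.73. The larger part there was thus in the other reads. At ZNF195 (3.51 and -0.30) the larger part was in the NMD-annotated reads, with 33.2 against 436. At TNFRSF10B (10.1 and -0.07) these reads were 0.66, 0.49, 0.065 and 371, under the floor of 3 reads in all but the library labelled UPF1/XRN1. A value near 0 for overlapping isoforms can be a failed estimate, so the size of the TNFRSF10B difference is uncertain. RBM39 followed these 4 loci, and TRA2B was smaller at 12.2 points. The difference of either sign that was largest at that depth was at XRRA1, at 0, 10.7, 39.99 and 4.52%, and HELB, a DNA helicase, came next in that direction at 42.4, 0.10, 36.5 and 12.1%. FECH was low in the control and higher in both co-depletions, while PIK3R2 and HELB were high in the control too. Over whole libraries, 2.51, 2.86, 3.59 and 3.98% of reads fell on NMD-annotated isoforms.

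Single isoforms differed far more often than genes. Of 61408 isoforms with a mean signal of at least 30.9, 7636 were 2-fold higher in the library labelled UPF1/XRN1 (12.4%) and 7968 were 2-fold lower (13%). Among the 44995 isoforms with at least 50 reads over the pair, 8.82% were higher and 9.02% lower. The split differed by annotation. Isoforms annotated as NMD targets had a median of 0.08, with 327 of 2791 higher (11.7%) and 188 lower (6.74%). Coding isoforms had a median of -0.13, with 1380 of 20789 higher (6.64%) and 1807 lower (8.69%). Isoforms with a retained intron lay between, at a median of 0.00 with 8.72% higher and 7.16% lower. Isoforms with a new junction had 12.8% higher and 11.3% lower, at a median of -0.03. The 363 long intergenic non-coding isoforms had 5.79% and 3.31%, while antisense isoforms went the other way at 2.07% and 4.74%. An excess of higher calls was thus not particular to NMD-annotated isoforms. The isoforms that the authors marked as NMD targets had a median of 0.10, but that mark was TRUE exactly where both co-depletions exceeded 2 times the control and so rests on the same libraries.

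The same counts were then set by the position of the annotated stop codon. The NMD annotation itself rests on that position, so this is not a separate check of the split. Coding isoforms whose stop lay in the last exon were 2-fold higher in 6.45% and lower in 8.87% of 18216 cases, and those with a stop 1 to 49 nt before the last junction in 7.73% and 9.11% of 944. The 117 coding isoforms with a stop 50 nt or more before it had 11.1% higher and 8.55% lower, with a median of -0.06. NMD-annotated isoforms had 8.44% higher and 4.62% lower with the stop from 50 to under 200 nt before the junction, 11.7% and 5.77% from 200 to under 500 nt, and 14% and 8.83% at 500 nt or more. Their medians were 0.03, 0.12 and 0.10, so both shares rose with the distance while the median did not rise throughout. Isoforms of 1 locus share reads and are not independent, and the counts carry no test.

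**Figure D4:**
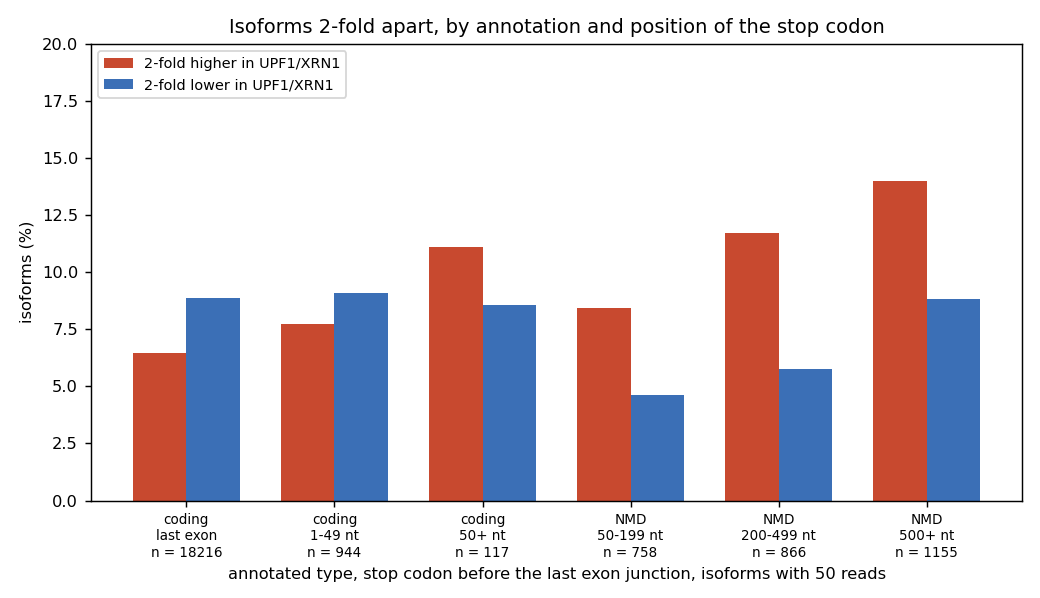
Percent of isoforms with at least 50 reads that were 2-fold higher (red) or lower (blue) in the library labelled UPF1/XRN1 than in that labelled SMG6/XRN1, by annotated type and by how far the stop codon lies before the last exon junction. Red bars exceed blue ones in all 3 groups of NMD-annotated isoforms, and blue bars exceed red ones in the 2 largest groups of coding isoforms.

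The largest isoform differences were switches within a locus whose total was nearly equal. The rule named 8 isoforms each way, and all 16 had under 3 reads in the lower library. MATR3, a nuclear matrix RNA-binding protein, had a coding isoform at 25.6, 786, 0 and 1884 reads while the locus ratio was 1.15. An isoform of SRRM1, a splicing coactivator, was listed at 0 in the library labelled SMG6/XRN1 and had 854 reads in that labelled UPF1/XRN1, with 415 in the control and 0.47 in that labelled XRN1. For TRIP12, a ubiquitin ligase, 1 isoform had 780, 779, 0 and 591 reads. On the other side an isoform of SAFB, a scaffold attachment factor, had 1569, 635, 1100 and 0 reads. The locus ratios ran from 0.82 to 1.19 for the 8 higher isoforms and from 0.75 to 1.14 for the 8 lower. A value of 0 for 1 of several overlapping isoforms can be a failed estimate, so these are given as listed.

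The isoform with the largest share of its locus differed between the libraries at 1333 of 11561 loci with at least 100 reads in each (11.5%), and at 708 of 7937 with at least 500 (8.92%). In 46 of the 708 the NMD-annotated isoform led only in the library labelled UPF1/XRN1, and in 30 only in that labelled SMG6/XRN1. The change of share ran from 0.99 (MLF1IP) to 36.1 points (ACOT8) in the 46. In the 30 it ran from 3.29 (CCDC150) to 27.4 points (CD44). Some were thus near ties, and no background over all loci is set beside these counts. SRSF3 and SRSF7 were among the 46: the NMD-annotated isoform of SRSF3 held 46.5 against 54.9% and the coding one 53.04 against 44.5%, so that the lead passed from one to the other. By size of the change the first were SALL1, a zinc finger factor of kidney development, where an isoform with a new junction held 0.65% in the library labelled SMG6/XRN1 and 95.4% in that labelled UPF1/XRN1, and NKX2-4, a homeobox gene. SALL1 reads were 714 against 740, so the total was equal. In the libraries labelled control and XRN1 the coding isoform of SALL1 led with 96.0 and 97.0%.

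Ribosomal protein genes lay low as a group. All 79 ribosomal proteins tested were below 0, 76 of them below the median gene, and their median was -0.24. Their values spanned only -0.45 to -0.03, and none was 1.5-fold apart. RPS4X stood at 4086, 5356, 4685 and 3639 FPKM (-0.36), RPL4 at 3206, 4249, 3532 and 2757 FPKM (-0.36) and RPL35A at 1047, 1182, 1086 and 794 FPKM (-0.45). RPL10A, at 1621 against 1591 FPKM, was the highest at -0.03. As a share of library reads the median was -0.10, against 0.01 for all genes, and 6 of the 79 lay above 0. The 322 genes with the highest mean levels, from 258 FPKM up, had a median of -0.18. The groups of lower level had medians between -0.12 and -0.08, with no steady trend. Ribosomal protein genes such as RPS4X are among the 322, so the 2 results are not separate. The part of the level of expression was not tested. Translation factors had a median of -0.08, near the median gene, with EIF2S3 (206 against 154 FPKM, -0.42) lowest and EIF5 (326 against 378 FPKM, 0.21) highest.

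Nuclear-encoded subunits of the respiratory chain had a median of -0.20, and 57 of 60 lay below 0 and 46 below the median gene. As a share of library reads 19 of the 60 lay above 0. NDUFA4 (19.8 against 12.5 FPKM, -0.62) was the 1 member past 1.5-fold, 1 of 60 beside 2.56% of all genes, which is near the background. It was followed by ATP5G1 (30.0 against 20.4 FPKM, -0.53) and NDUFB10 (329 against 232 FPKM, -0.50). UQCR10 (41.3 against 46.2 FPKM) was the highest at 0.16. Of 13 mitochondrially encoded mRNAs 3 were in the comparison and all were below the median gene: MT-ND5 (2180 against 1317 FPKM), MT-ND6 (1191 against 796 FPKM) and MT-CYB (697 against 558 FPKM). MT-ND5 was listed at 0 in the libraries labelled control and XRN1. Proteasome subunits, of which 24 of 30 lay above the median gene, had a median of -0.04 and a positive one after centring (0.06). PSMD7 was highest at 92.1 against 125 FPKM (0.43) and PSMA2 lowest at 164 against 126 FPKM (-0.38).

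Lists of growth and inflammatory signalling also lay below the median gene. Immediate-early mRNAs, which growth factors induce within minutes, had a median of -0.24 by FPKM and -0.38 by signal. Of 26 tested, 6 were 1.5-fold lower and none higher, beside 2.56% and 1.44% of all genes. FOS stood at 2.04, 1.84, 4.55 and 2.12 FPKM (-0.83), FOSB at 0.92, 0.90, 3.47 and 1.19 FPKM (-1.03) and ETV5 at 3.12, 2.54, 13 and 6.31 FPKM (-0.93). ETV4, given above, is itself the lowest member of this list (-1.04). In all of these the library labelled SMG6/XRN1 was the high one. In that labelled UPF1/XRN1, FOS and FOSB lay near the control and XRN1 libraries, while ETV5 stood above both. ATF3, a stress-induced factor, was the highest of the list at 85.1 against 111 FPKM (0.38).

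All 6 cytokine and chemokine mRNAs tested were lower in the library labelled UPF1/XRN1, with a median of -0.45. CXCL1 stood at 3.18, 1.29, 6.19 and 2.15 FPKM with 88.0 reads in the latter (-1.19). IL18 stood at 2.98, 3.53, 4.38 and 2.35 FPKM (-0.69). IL32, another interleukin, stood at 52.2, 19.8, 40.9 and 30.7 FPKM (-0.40). Of these 3, CXCL1 and IL18 were highest in the library labelled SMG6/XRN1, while IL32 was highest in the control. Targets and factors of Regnase-1 and Roquin, proteins that remove inflammatory mRNAs and of which Regnase-1 works with UPF1, had a median of -0.27, and 9 of 12 lay below the median gene. Among members with a mean of at least 5 FPKM the median was -0.12, close to the -0.09 of all such genes. IER3, an early response gene, stood at 14.6, 11.6, 19.3 and 10.7 FPKM (-0.80) and TNFAIP3, an inhibitor of NF-kappaB signalling, at 3.26, 2.50, 5.87 and 3.92 FPKM (-0.48). CXCL1 and CXCL3 are in both lists. Interferon response genes were mixed around a median of -0.21: IFIT1 stood at 3.44 against 1.34 FPKM (-0.92) and ISG15 at 6.61 against 11.2 FPKM (0.67). ISG20 was higher by FPKM (1.36) on 39.0 against 53 reads and by only 0.25 by signal.

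Targets of ATF4, the factor of the integrated stress response, had a median of 0.05, with 24 of 32 above the median gene. By FPKM 3 were 1.5-fold higher and none lower, beside 1.44% and 2.56% of all genes. These were SESN2, a stress-induced regulator of growth signalling (6.03, 10.3, 13.5 and 23.1 FPKM, 0.73), TRIB3, a pseudokinase (3.02, 5.04, 6.06 and 10.6 FPKM, 0.71), and ATF5, a related factor (5.19, 3.29, 5.81 and 9.31 FPKM, 0.60). DDIT3, which encodes CHOP, stood at 11.1, 22.4, 23.0 and 35 FPKM (0.58), and its level in the library labelled SMG6/XRN1 matched that labelled XRN1. CHAC1 (-0.46) and the serine synthesis genes PSAT1 (-0.18) and PHGDH (-0.15) lay below. Among p53 targets 23 of 26 lay above the median gene, with a median of 0.00 and CDKN1A, the cell cycle inhibitor p21, at 13.1, 17.2, 25.4 and 36.2 FPKM (0.50). SESN2 is in both lists, and CDKN1A, GADD45A and DDIT3 also stand among the known NMD targets.

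Genes of the unfolded protein response, which share the induction of DDIT3 but act in protein folding, lay lower, with a median of -0.16 and PDIA4 (19.4 against 14.3 FPKM, -0.41) lowest. Cholesterol synthesis genes had a median of -0.20, with 15 of 21 below the median gene. INSIG1, the sterol sensor of the endoplasmic reticulum, stood at 30.2, 31.2, 30.7 and 17.9 FPKM (-0.75) and SQLE, squalene epoxidase, at 20.4, 20.6, 15.2 and 9.73 FPKM (-0.59). Both were lowest in the library labelled UPF1/XRN1. S-phase genes sat at the median gene (-0.10) with CCNE1 lowest (35.8 against 23.7 FPKM, -0.58), and genes of G2 and mitosis at 0.00 with BIRC5, survivin, highest (70.2 against 104 FPKM, 0.56). Decapping and 5′ decay factors were at -0.12, with PNRC2, a decapping activator that binds UPF1, highest at 71.8, 84.4, 72.2 and 107 FPKM (0.56). Replication-dependent histones, whose degradation uses UPF1 at the end of S phase, had a median of -0.02 with 24 genes tested and none 1.5-fold apart, and most of them lack a poly(A) tail.

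**Figure D5:**
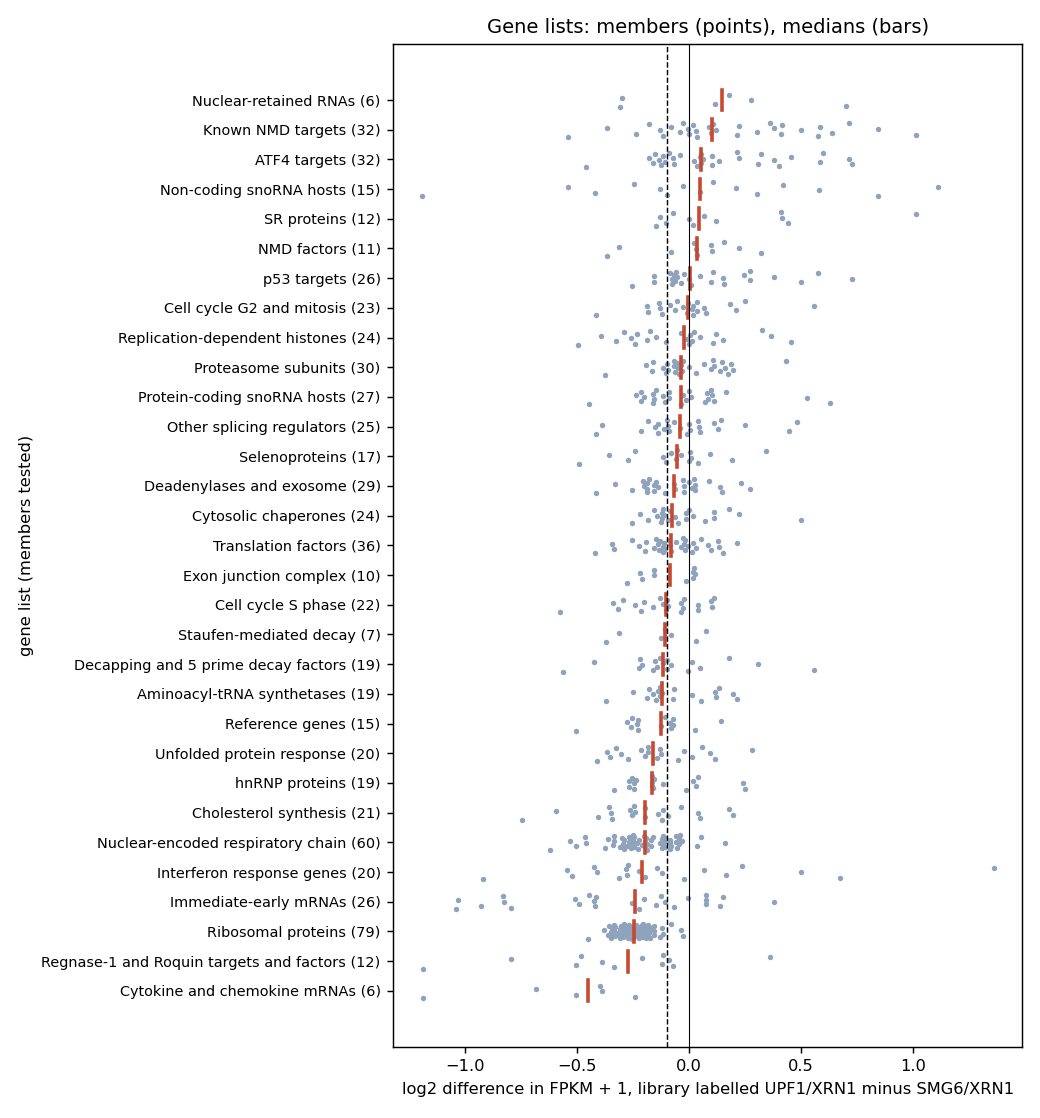
log2 difference in FPKM + 1 (horizontal), library labelled UPF1/XRN1 minus that labelled SMG6/XRN1, for members of lists with at least 6 genes tested. Points are genes, red bars list medians, the solid line 0 and the dashed line the median of all genes (-0.10). Ribosomal proteins form a narrow group around -0.24, while known NMD targets spread from -0.54 to 1.01.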

How the data were processed

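Cytoplasmic poly(A)+ RNA of 4 siRNA conditions was sequenced, 1 library each. The gene table holds FPKM as deposited by the authors. The isoform table holds a signal that the authors normalised to spike-in RNA, per the name of that table. Its header adds a TRUE or FALSE mark for NMD. Another deposited file pairs loci with reference genes and class codes. The submitters' processing notes name CASAVA 1.8.2, Bowtie 0.12.7, TopHat2 2.0.6, Cufflinks 2.0.2 and hg19, with no role or order. The strand setting and the spike-in factors were not stated in these sources.

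Genes were kept at a mean of 1 FPKM over the 4 libraries and compared as log2(FPKM + 1), which understates changes of low genes. What 1 read is worth was found from the steps of low loci: of loci with up to 20 reads, between 84.4 and 86.4% came out whole within 0.01 in each library. Signals divided by that step gave estimated reads. Read ratios have exact conditional binomial and shares Clopper-Pearson 95% intervals, for counting error only. No count model was run, since each group had 1 library. Named genes were up to 15 each way by size, with a mean of 5 FPKM, 50 reads, no library at 0 and 2-fold on both scales, which left 3 and 10, plus UPF1, SMG6, XRN1, HBB, up to 3 each way per list and 8 isoforms each way. Members and lists were chosen with earlier results of these data known; the 1.5-fold set, stop positions, copies, gene families and isoforms of the targets were added after the values were seen. Stop codons came from GENCODE 29, which held 139118 of 149683 reference-matched isoforms (92.9%). The alternatives tried were the pseudocount, the filter, centring, the summed signal, the share of library reads and stricter read minimums. The code was tested on simulated data. Python 3.11.15, numpy 2.4.6, pandas 2.3.3, scipy 1.17.1 and matplotlib 3.10.9 were used. Values of some named genes are not reported here.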

Additional observations from a re-analysis of the deposited data

How the results depend on the processing

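The 38 genes 2-fold higher in the library labelled UPF1/XRN1 became 74 with a pseudocount of 0.1 FPKM, 12 at a mean of at least 5 FPKM, 15 as a share of library reads and 69 at 1.5-fold on both scales. The 38 lower became 122, 19, 14 and 188 under the same settings and 105 by summed isoform signal. The 1.5-fold set and the share of reads for list medians were chosen after seeing the data. With at least 50 reads, the isoforms 2-fold apart were 3967 higher and 4060 lower, and with at least 500 reads in each library the loci with another main isoform were 708, in both cases from fewer features tested. The other 15 summary values stayed within 1.5 times. Of 48 alternatives for 16 named genes, 41 kept direction and side of 2-fold. Centring moved COL4A3BP (-0.99), TRUB1 (-0.99), CADM1 (-0.96), ETV4 (-0.94), CTD-2396E7.10 (-0.92) and GPC3 (-0.91) inside 2-fold, and SMG6 stood at 0.54 by signal. List medians took another sign for 11 lists on centring, 13 by share of reads and 1 at a mean of 5 FPKM. No paired analysis was possible because each condition had 1 library and the labels give no replicate numbers. With 1 library a side, no replicate could be left out.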

Other observations

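Some gene families, picked after their values were seen, lay away from the median gene of -0.10. All 7 SOX transcription factors tested, regulators of cell fate, lay below it, with a median of -0.48 by FPKM and -0.60 by signal. SOX4 and SOX9 were 1.5-fold lower on both scales, beside 1.55% of all genes. The 17 HOX homeobox genes had a median of -0.26, and 6 lay above the median gene. Collagen chains had a median of -0.41 over 7 genes and laminin chains -0.20 over 7. All collagen chains tested lay near the filter of 1 FPKM, with means from 1.04 (COL6A1) to 1.998 FPKM (COL14A1). Whether the filter shaped the collagen median was not tested. In contrast the 355 zinc finger genes with ZNF names (-0.07) and the 73 mitochondrial ribosomal proteins (-0.09) sat at the median gene.

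By annotated type, 41 unprocessed pseudogenes had a median of 0.10 and 139 transcribed ones 0.04. Processed pseudogenes lay lower, with a median of -0.11 over 115. The 10269 protein-coding genes had -0.10, the 198 lincRNAs -0.07 and 511 antisense RNAs -0.10. Pseudogenes can share reads with their parent genes, and antisense RNAs with their partners where strand is not used.

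Features of the leading isoform separated genes little. Over quintiles of 3′UTR length, medians ran from -0.13 to -0.09. From the lowest to the highest GC content they went from -0.14 to -0.06. Genes with 0, 1, 2 to 3 and 4 or more AUG triplets before the coding start had medians of -0.11, -0.10, -0.11 and -0.10.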
